A study of Mus musculus with 11 samples.

Results

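This account follows 36 genes of the cell cycle and DNA replication in peritoneal polymorphonuclear neutrophils (PMNs) of FOXO3 KO and WT mice. They were taken as a list by gene symbol, and 36 of 36 had a row among the 54164 genes of the deposited table. RNA sequencing covered 11 libraries, 6 of FOXO3 KO mice and 5 of WT mice, both on C57BL/6. The study used male and female mice. All mice were 6 to 8 weeks old and received 2 intraperitoneal injections of 1 mL of casein, an irritant that draws PMNs into the peritoneum, with cells taken 3 h after the second and enriched on a density gradient. Littermates were genotyped as homozygous WT or FOXO3 KO, and the paper speaks of global FOXO3 deficiency in mice of work it cites. For the mice used here the sources state neither the deleted part of Foxo3 nor a promoter or cell type of the deletion. Values are TPM, a level per transcript length scaled to a fixed total in each library, and the depth of each library is unknown.

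In a cycling cell, E2F factors and cyclin E with Cdk2 open S phase, Cdc6 and Cdt1 load the ring-shaped Mcm2-7 helicase onto replication origins, and the clamp Pcna holds the polymerases while Tyms and ribonucleotide reductase supply deoxynucleotides. Cyclins A and B with Cdk1, the Aurora and Polo kinases and the spindle proteins then carry the cell through mitosis. Mature PMNs have left the cycle, whereas their bone marrow progenitors and proliferating lymphocytes use these genes. FOXO3, a forkhead transcription factor restrained by AKT, is known in other cells for holding division back through inhibitors such as Cdkn1b.

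The table names the libraries by numbers of a single digit (FOXO3 KO 1, 2 and 3 and WT 1, 2 and 3) or by two-digit numbers (FOXO3 KO 05, 06 and 09 and WT 03 and 08). What the numbering stands for is not given in the sources used here. Foxo3 itself averaged 2.44 ± 1.28 TPM in FOXO3 KO libraries (SD, n = 6) and 9.30 ± 1.75 TPM in WT libraries (SD, n = 5), and the ranges of 0.844 to 4.27 TPM and 7.61 to 11.7 TPM did not overlap. Its log2 fold change was -1.65 (SE 0.26, FDR = 0.49 over all genes tested). The 12 markers of mature PMNs summed to 103906 to 257026 TPM, most of it S100a8 and S100a9. Ly6g, another of the 12, was at 29.3 to 219 TPM, so every library held PMN transcripts. Markers of other cells were present too. The 12 B-cell markers summed to 5692 TPM in FOXO3 KO 05, 3118 TPM in FOXO3 KO 06, 1300 TPM in FOXO3 KO 09, 1379 TPM in WT 03 and 2087 TPM in WT 08, against 75.6 to 558 TPM in the 6 single-digit libraries. Haemoglobin and other erythroid markers reached 8377 TPM in FOXO3 KO 09. Xist, the transcript of the inactive X chromosome, was at 43.8 TPM in FOXO3 KO 05 and 27.7 TPM in FOXO3 KO 06 but at most 0.115 TPM in the other 3 two-digit libraries.

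The cell cycle genes were low in these preparations. Together they summed to 215 to 495 TPM in FOXO3 KO libraries and 190 to 316 TPM in WT libraries, at most 0.0522% of the TPM in any library. Pcna was the highest, with a mean of 102 TPM over all libraries, and was followed by Stmn1 (17.6 TPM), Cdk2 (15.3 TPM), Mcm3 (10.5 TPM) and Mcm7 (10.3 TPM). Ccne2 (cyclin E2) and the kinetochore genes Cenpe and Cenpf averaged 0.441, 0.650 and 0.382 TPM and fell under the minimum of 1 TPM, so 33 of the 36 genes were tested. The mean normalized count over all libraries that the authors deposited ranged over 59.5 to 2611 for the 33 tested genes. Mki67, a long transcript, averaged only 7.51 TPM on a mean normalized count of 1646. In bulk RNA, fewer cycling cells and less of a transcript per cell cannot be told apart.

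**Figure D1:**
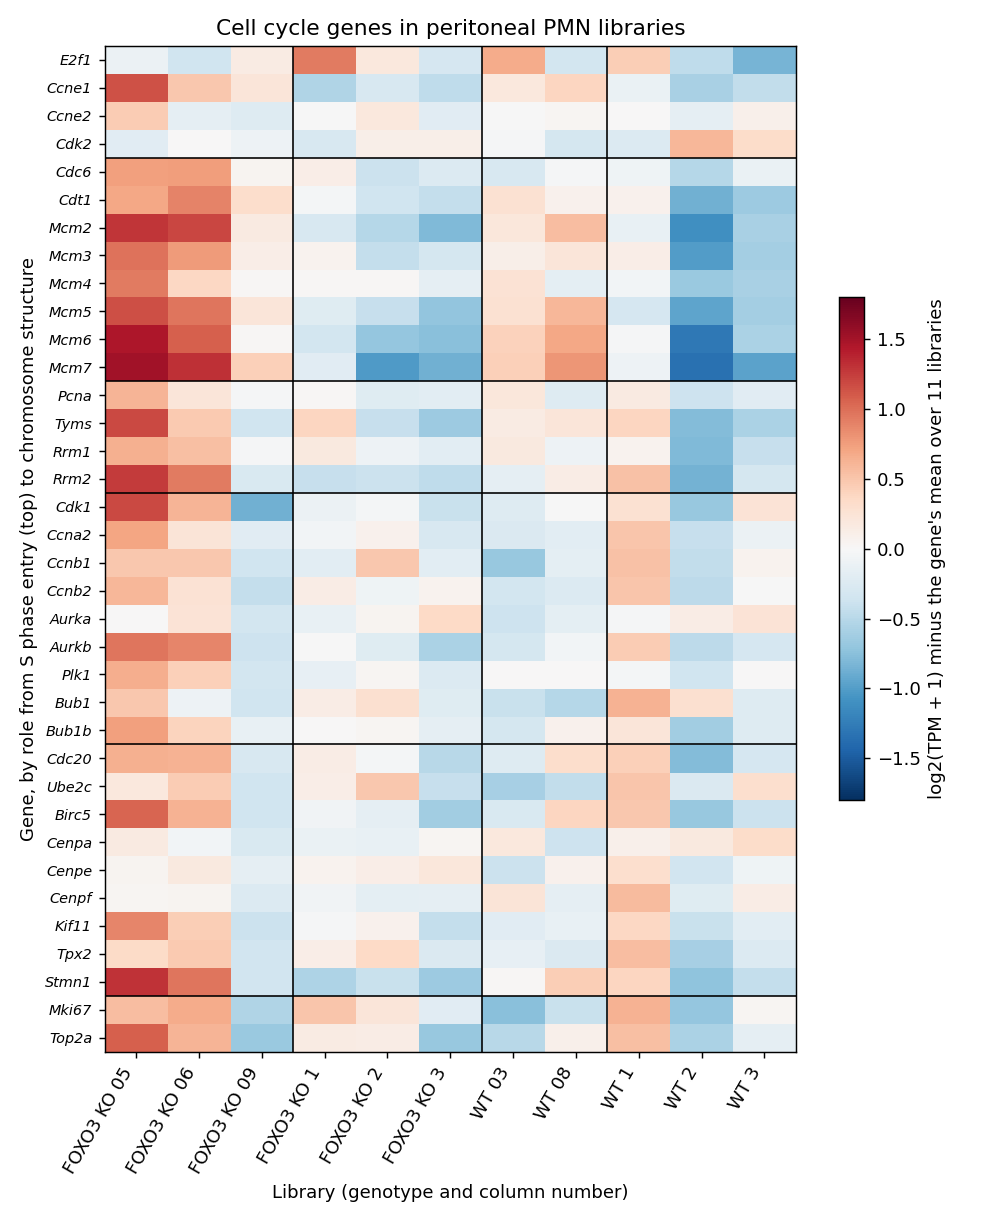
Heat map of the 36 genes (rows, by role) in 11 libraries (columns, FOXO3 KO left of WT), where colour is log2(TPM + 1) minus that gene's mean over all libraries. FOXO3 KO 05 and FOXO3 KO 06 are red across most rows, and most origin licensing rows are also red in WT 03 and WT 08 while WT 2 is blue.

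The first comparison asks whether loss of FOXO3 came with a change of these genes. Between FOXO3 KO and WT libraries 0 of the 33 genes were called (0.0% of all 12195 genes tested were), by limma on log2(TPM + 1) where a call needs FDR < 0.05 and a log2 fold change beyond 0.5 in either direction. Of the 33, 0 reached an unadjusted p under 0.05, as 257 of all genes did. For none of the 36 did every FOXO3 KO library lie above or below every WT library, a separation that 0.131% of all genes showed. The fold changes were above 0 for 31 of 33 genes, with a median of 0.22 on the log2 scale, and 68.6% of all genes were above 0 as well, with a median of 0.11. After quantile normalization these medians were 0.08 for the 33 genes and 0.01 for all genes.

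The genes with the smallest p upward were Mcm4, Rrm1 and Cdc6. Mcm4, a subunit of the replicative helicase, had 13, 8.47 and 6.42 TPM in FOXO3 KO 05, 06 and 09, 6.39, 6.38 and 5.53 TPM in FOXO3 KO 1, 2 and 3, 7.76 and 5.45 TPM in WT 03 and 08, and 6.09, 3.62 and 3.90 TPM in WT 1, 2 and 3. FOXO3 KO 05 was the highest and WT 2 the lowest, and the genotypes overlapped. Its log2 fold change was 0.44 (SE 0.24, FDR = 0.99). Rrm1, the large subunit of ribonucleotide reductase, had 11.7, 10.8 and 7.07 TPM in FOXO3 KO 05, 06 and 09, 8.23, 6.66 and 6.12 TPM in FOXO3 KO 1, 2 and 3, 8.21 and 6.67 TPM in WT 03 and 08, and 7.54, 3.72 and 5.15 TPM in WT 1, 2 and 3. WT 2 and WT 3 were lower than the other 9 libraries, and the log2 fold change was 0.38 (SE 0.23, FDR = 0.99). Cdc6, a loader of the helicase, had 2.91, 2.94 and 1.41 TPM in FOXO3 KO 05, 06 and 09, 1.54, 0.785 and 0.976 TPM in FOXO3 KO 1, 2 and 3, 0.924 and 1.31 TPM in WT 03 and 08, and 1.23, 0.648 and 1.15 TPM in WT 1, 2 and 3. Only FOXO3 KO 05 and 06 stood clear of the rest, and the log2 fold change was 0.37 (SE 0.25, FDR = 0.99).

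The 2 genes below 0 were Cenpa and Cdk2. Cenpa, the histone variant of the centromere, had 11, 9.36 and 7.87 TPM in FOXO3 KO 05, 06 and 09, 8.85, 8.75 and 9.94 TPM in FOXO3 KO 1, 2 and 3, 11.2 and 7.25 TPM in WT 03 and 08, and 10.4, 11.1 and 12.5 TPM in WT 1, 2 and 3. The genotypes overlapped, with a log2 fold change of -0.15 (SE 0.16, FDR = 0.99). Cdk2, the kinase partner of cyclin E, had 12.9, 15.1 and 14.1 TPM in FOXO3 KO 05, 06 and 09, 12.1, 16.2 and 16.2 TPM in FOXO3 KO 1, 2 and 3, 14.8 and 11.9 TPM in WT 03 and 08, and 12.4, 23.3 and 19.2 TPM in WT 1, 2 and 3. The log2 fold change of -0.13 (SE 0.19, FDR = 0.99) rested on WT 2, without which it was 0.0028.

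The 3 untested genes were low in both genotypes. In FOXO3 KO and WT libraries Ccne2 averaged 0.455 ± 0.293 and 0.423 ± 0.0896 TPM, Cenpe 0.723 ± 0.15 and 0.563 ± 0.318 TPM, and Cenpf 0.280 ± 0.104 and 0.504 ± 0.346 TPM (SD, n = 6 and 5). The spread between libraries covered each of these differences.

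FOXO3 KO 05 and FOXO3 KO 06 carried much of the positive median. FOXO3 KO 05 was the highest of 11 libraries for 22 of the 33 tested genes, among them all of Mcm2 to Mcm7, and FOXO3 KO 06 for another 3. Without both libraries the median log2 fold change of the 33 genes was -0.06, with 14 genes above 0 and 19 below, while the median of all genes was 0.16. Without FOXO3 KO 05 alone it was 0.08. Within the 6 single-digit libraries the median was 0.01, with 18 of 33 genes above 0, beside 0.21 and 77.2% above 0 over all genes. Within the 5 two-digit libraries it was 0.43, with 32 of 33 above 0, beside 0.05 and 55.5% over all genes.

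**Figure D2:**
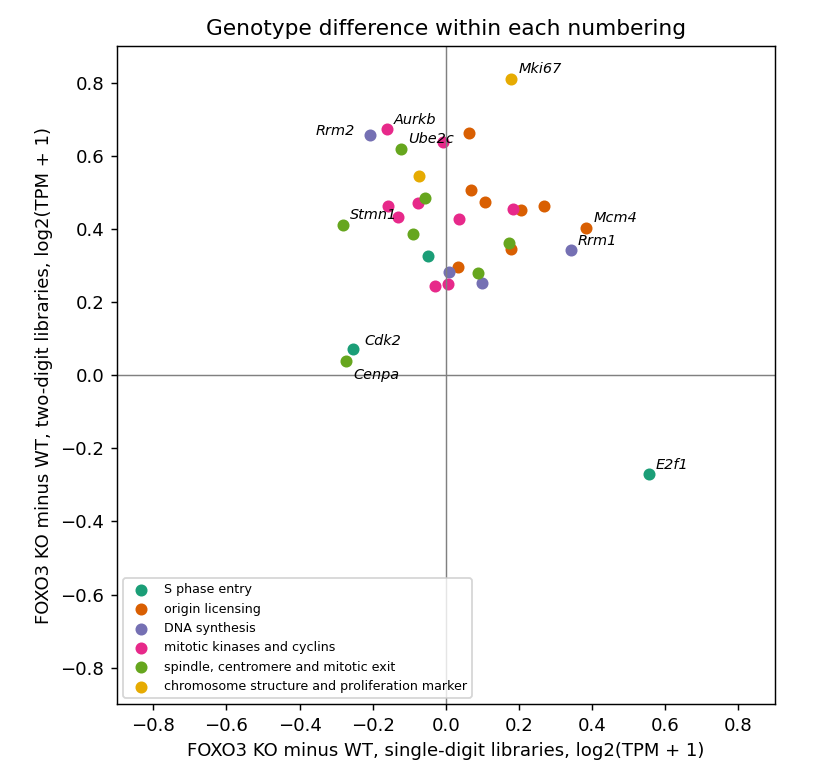
FOXO3 KO minus WT difference in log2(TPM + 1) within the two-digit libraries (y axis, 3 FOXO3 KO and 2 WT) and within the single-digit libraries (x axis, 3 of each), 1 point for each of the 33 tested genes, coloured by role. All points but E2f1 lie above 0 on the y axis, and the points spread on both sides of 0 on the x axis.

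Whether the genotype difference itself depended on the numbering was tested as an interaction. No gene of the 33 was called (0.0% of all 12195 genes), and 0 of the 33 had an unadjusted p under 0.05, against 254 of all genes. The estimates were above 0 for 32 of 33 genes with a median of 0.37, beside 34.05% of all genes and a median of -0.15. With Xist as a further term the direction turned, with 10 of 33 above 0 and a median of -0.21. The 2 smallest p were those of Ube2c and Aurkb. Ube2c, the ubiquitin-conjugating enzyme that works with the anaphase-promoting complex, had 5.33, 6.61 and 3.32 TPM in FOXO3 KO 05, 06 and 09, 4.98, 6.77 and 3.14 TPM in FOXO3 KO 1, 2 and 3, 2.67 and 3.06 TPM in WT 03 and 08, and 6.83, 3.62 and 5.85 TPM in WT 1, 2 and 3. Only within the two-digit libraries did all FOXO3 KO values exceed both WT values, and the interaction was 0.74 (SE 0.47, unadjusted p = 0.15). Aurkb, the kinase of the chromosomal passenger complex, had 5.62, 5.27 and 1.65 TPM in FOXO3 KO 05, 06 and 09, 2.40, 1.92 and 1.31 TPM in FOXO3 KO 1, 2 and 3, 1.74 and 2.30 TPM in WT 03 and 08, and 3.68, 1.47 and 1.78 TPM in WT 1, 2 and 3. Its interaction of 0.83 (SE 0.57, unadjusted p = 0.17) came with FOXO3 KO 09 lying below both two-digit WT libraries.

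The 2 numberings differed in the replication genes. With genotype as a term, 7 of the 33 genes rose in two-digit libraries and 0 fell, where 8.26% of all genes rose and 11.7% fell. These were Ccne1, Cdt1, Mcm2, Mcm3, Mcm5, Mcm6 and Mcm7. For all of these but Mcm3, every two-digit library lay above every single-digit library, as it did for 6.15% of all genes. The median difference of the 33 genes was 0.28 on the log2 scale and that of all genes was -0.15.

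Origin licensing held 6 of the 7 calls, and its 8 genes had a median difference of 0.98. In the GRCm38 annotation (GENCODE M21) the genes of the helicase are spread over the genome, with Mcm7 at chr5:138164583-138172422, Mcm2 at chr6:88883474-88898780, Mcm5 at chr8:75109569-75128439 and both Mcm3 (chr1:20802968-20820312) and Mcm6 (chr1:128331590-128359664) on chromosome 1. Mcm7, a helicase subunit, had 25.3, 21.8 and 11.4 TPM in FOXO3 KO 05, 06 and 09 and 11.4 and 15.0 TPM in WT 03 and 08, against 7.0, 3.53 and 4.06 TPM in FOXO3 KO 1, 2 and 3 and 7.61, 2.63 and 3.69 TPM in WT 1, 2 and 3. The numberings did not overlap in either genotype, and the difference was 1.62 (SE 0.28, FDR = 0.0024). Mcm6 had 22.5, 17.0 and 7.74 TPM in FOXO3 KO 05, 06 and 09 and 10.5 and 12.8 TPM in WT 03 and 08, against 5.83, 4.29 and 4.08 TPM in FOXO3 KO 1, 2 and 3 and 7.42, 2.52 and 4.77 TPM in WT 1, 2 and 3. FOXO3 KO 09 lay just above WT 1, and the difference was 1.33 (SE 0.28, FDR = 0.0075).

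Mcm2 and Mcm5 had the same order of libraries at the top. Mcm2 had 13.2, 12.3 and 5.46 TPM in FOXO3 KO 05, 06 and 09 and 5.68 and 7.47 TPM in WT 03 and 08, against 3.72, 3.03 and 2.32 TPM in FOXO3 KO 1, 2 and 3 and 4.27, 1.70 and 2.86 TPM in WT 1, 2 and 3. The difference was 1.23 (SE 0.26, FDR = 0.0066), with no overlap. Mcm5 had 20.2, 17.4 and 9.99 TPM in FOXO3 KO 05, 06 and 09 and 10.5 and 13.3 TPM in WT 03 and 08, against 7.11, 6.10 and 4.79 TPM in FOXO3 KO 1, 2 and 3 and 6.63, 3.90 and 5.18 TPM in WT 1, 2 and 3. The difference was 1.15 (SE 0.21, FDR = 0.0028), again with no overlap.

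Mcm3 had 20.2, 17.2 and 10.6 TPM in FOXO3 KO 05, 06 and 09 and 10.5 and 11.4 TPM in WT 03 and 08, against 10.1, 6.94 and 7.63 TPM in FOXO3 KO 1, 2 and 3 and 10.6, 4.36 and 6.02 TPM in WT 1, 2 and 3. WT 1 reached the two-digit range, and the difference was 0.77 (SE 0.23, FDR = 0.034). Cdt1, which loads the helicase together with Cdc6, averaged 12.2 ± 3.07 TPM in two-digit libraries (SD, n = 5) and 6.46 ± 1.83 TPM in single-digit libraries (SD, n = 6), a difference of 0.80 (SE 0.20, FDR = 0.016). Mcm4 and Cdc6, the other 2 licensing genes, did not pass, at 0.48 (FDR = 0.11) and 0.42 (FDR = 0.19).

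**Figure D3:**
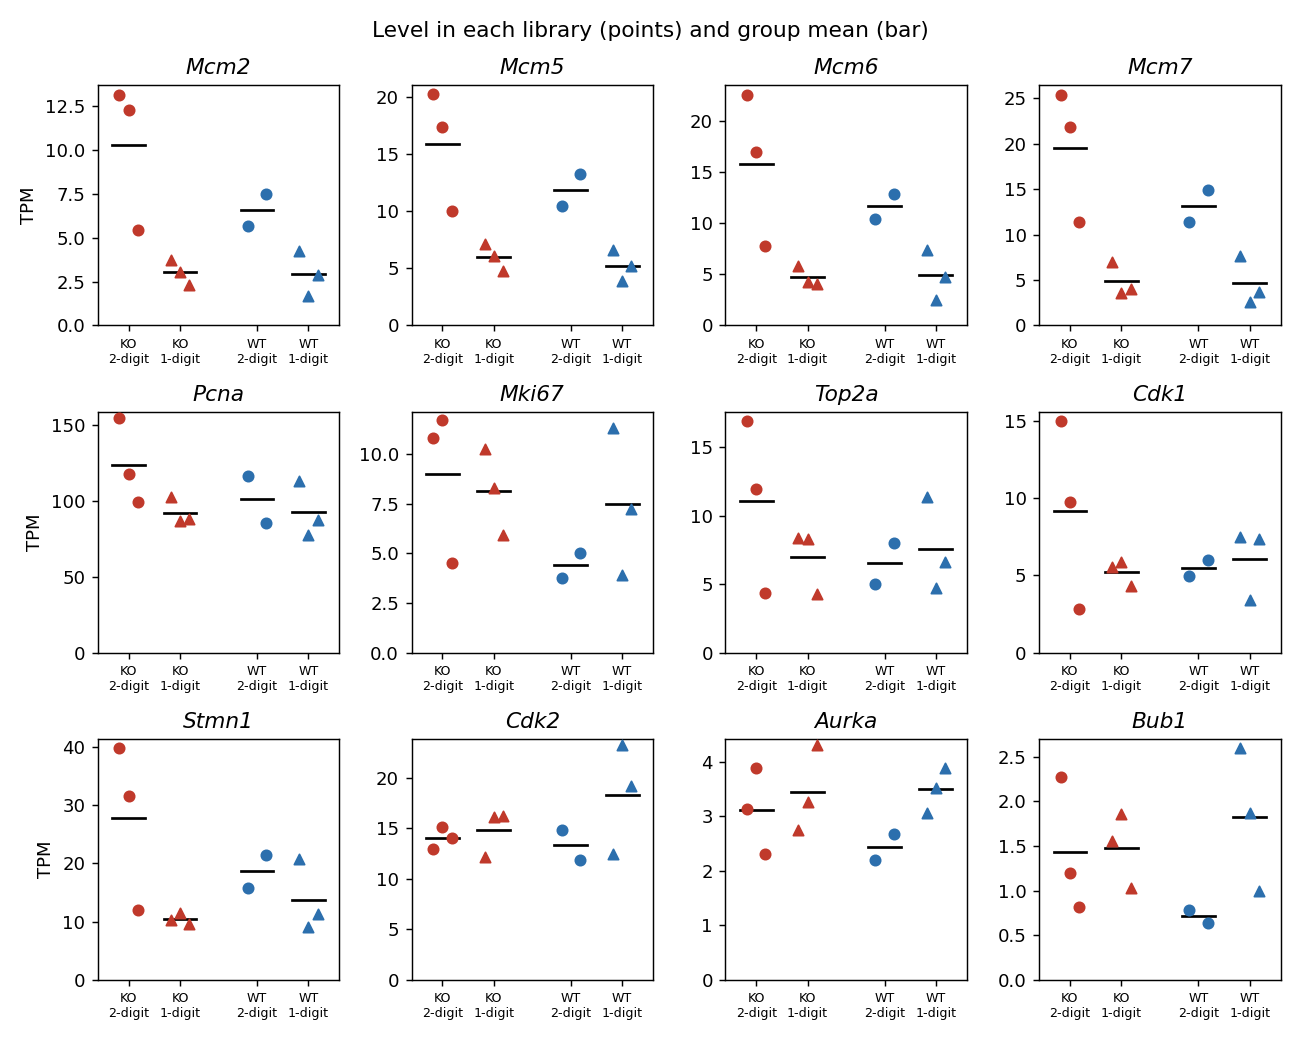
TPM of 12 genes in each library (points) with the mean of each set of libraries (bars), FOXO3 KO left of WT and two-digit left of single-digit within a genotype. Two-digit libraries sit above single-digit ones for Mcm2, Mcm5, Mcm6 and Mcm7, while for Mki67, Cdk1, Cdk2, Aurka and Bub1 the two-digit and single-digit libraries overlap.

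Among S phase entry genes, Ccne1 (cyclin E1) averaged 3.35 ± 1.33 TPM in two-digit libraries and 1.29 ± 0.283 TPM in single-digit libraries (SD, n = 5 and 6), a difference of 0.88 (SE 0.20, FDR = 0.011). E2f1, a transcription factor that switches on S phase genes, was at -0.01 and had its highest value, 9.13 TPM, in FOXO3 KO 1. Cdk2 was at -0.21 (SE 0.18, FDR = 0.43). The 4 DNA synthesis genes were all above 0 and none was called. Pcna had 154, 118 and 99.0 TPM in FOXO3 KO 05, 06 and 09 and 116 and 85.5 TPM in WT 03 and 08, against 102, 86.4 and 87.7 TPM in FOXO3 KO 1, 2 and 3 and 113, 77.4 and 87.3 TPM in WT 1, 2 and 3. The numberings overlapped, and the difference was 0.28 (SE 0.17, FDR = 0.25). Tyms (thymidylate synthase), Rrm1 and Rrm2, the small subunit of ribonucleotide reductase, were at 0.59, 0.42 and 0.68 with FDR of 0.20, 0.14 and 0.16.

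The 18 tested genes with mitotic roles had 0 calls and a median difference of 0.15, with 10 above 0 and 8 below. The 15 genes of S phase entry, licensing and synthesis had 7 calls and a median of 0.68. By the same rule 8.26% of all genes rose and 11.7% fell. With Xist as a further term the mitotic set had 6 calls, all upward, with 17 of 18 genes above 0 and a median of 0.55. The S phase set then had 11 calls and a median of 1.11. The mitotic set was also lower in level, with a median of the genes' mean TPM of 2.56 against 7.44 in the S phase set. Differences on the log2(TPM + 1) scale understate changes of low genes. The difference between the 2 sets of genes was not tested. Mki67, the usual proliferation marker, had 10.8, 11.7 and 4.50 TPM in FOXO3 KO 05, 06 and 09 and 3.73 and 5.03 TPM in WT 03 and 08, against 10.3, 8.26 and 5.91 TPM in FOXO3 KO 1, 2 and 3 and 11.3, 3.92 and 7.20 TPM in WT 1, 2 and 3. High and low values occurred in both numberings, with a difference of -0.22 (SE 0.30, FDR = 0.64). Top2a, the topoisomerase that untangles sister chromatids, had 16.9, 12 and 4.36 TPM in FOXO3 KO 05, 06 and 09 and 5.03 and 8.03 TPM in WT 03 and 08, against 8.39, 8.31 and 4.28 TPM in FOXO3 KO 1, 2 and 3 and 11.3, 4.74 and 6.61 TPM in WT 1, 2 and 3. The difference was 0.20 (SE 0.34, FDR = 0.70). Cdk1, the main mitotic kinase, had 15.0, 9.76 and 2.85 TPM in FOXO3 KO 05, 06 and 09 and 4.95 and 6.01 TPM in WT 03 and 08, against 5.51, 5.85 and 4.31 TPM in FOXO3 KO 1, 2 and 3 and 7.50, 3.39 and 7.36 TPM in WT 1, 2 and 3. FOXO3 KO 05 had the highest and FOXO3 KO 09 the lowest level of Cdk1, and the difference was 0.24 (SE 0.34, FDR = 0.64).

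Bub1 and Aurka had the smallest p of the mitotic genes below 0. Bub1, a kinase of the spindle checkpoint, had 2.27, 1.19 and 0.821 TPM in FOXO3 KO 05, 06 and 09 and 0.783 and 0.637 TPM in WT 03 and 08, against 1.56, 1.86 and 1.02 TPM in FOXO3 KO 1, 2 and 3 and 2.6, 1.87 and 0.995 TPM in WT 1, 2 and 3. The sets overlapped in FOXO3 KO libraries but not in WT libraries, and the difference was -0.34 (SE 0.24, FDR = 0.33). Aurka, the kinase of the spindle poles, had 3.14, 3.89 and 2.30 TPM in FOXO3 KO 05, 06 and 09 and 2.20 and 2.67 TPM in WT 03 and 08, against 2.75, 3.26 and 4.31 TPM in FOXO3 KO 1, 2 and 3 and 3.07, 3.53 and 3.89 TPM in WT 1, 2 and 3. The difference was -0.24 (SE 0.17, FDR = 0.35). Stmn1, which destabilises microtubules and was the second most abundant of the 36, had 39.7, 31.5 and 12.1 TPM in FOXO3 KO 05, 06 and 09 and 15.8 and 21.5 TPM in WT 03 and 08, against 10.3, 11.5 and 9.58 TPM in FOXO3 KO 1, 2 and 3 and 20.8, 9.04 and 11.3 TPM in WT 1, 2 and 3. Its difference of 0.87 (SE 0.31, FDR = 0.068) was the largest of the mitotic genes and did not pass. The other 12 tested mitotic genes, among them Ccnb1 and Ccnb2 (B-type cyclins), Plk1 (Polo kinase), Birc5 (survivin) and Kif11 (a spindle motor), lay between -0.29 and 0.51.

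**Figure D4:**
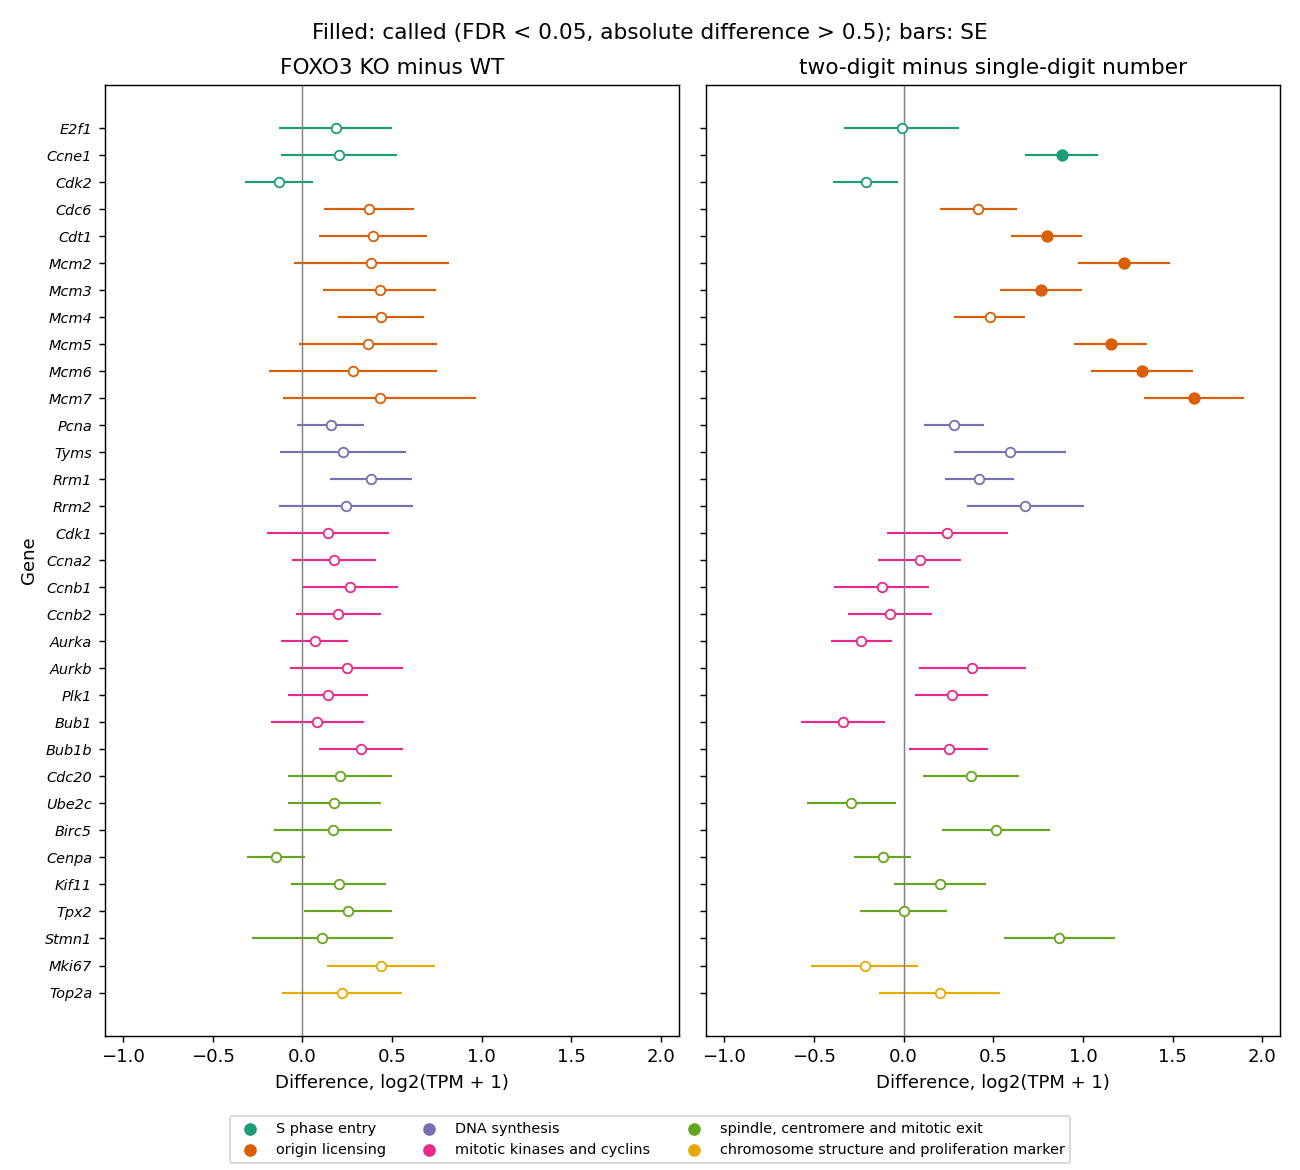
Difference in log2(TPM + 1) with its SE for the 33 tested genes, FOXO3 KO minus WT (left) and two-digit minus single-digit (right), coloured by role, with called genes filled. No point is filled on the left, and the 7 filled on the right are Ccne1, Cdt1, Mcm2, Mcm3, Mcm5, Mcm6 and Mcm7.

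These calls were set beside the cells that the preparations held. The B-cell markers and the Mcm genes were both higher in two-digit libraries. All 12 B-cell markers and all 9 tested T-cell markers rose in two-digit libraries, the B-cell list by a median of 3.36 and the T-cell list by 1.65 on the log2 scale, while 4 of 10 macrophage markers fell and 1 rose. Of other lists, 4 of 6 intestinal epithelium markers rose (median 1.68), as did 2 of 6 mast cell and basophil markers (median 1.38). The erythroid list had a median of 2.51 with 0 of 5 called, and the eosinophil list -1.05 with 0 of 7 called. In the plasma cell, mesothelial and granulocyte progenitor lists 1 marker each rose. In the mature PMN, monocyte and dendritic cell lists 1 each fell. Of all genes 8.26% rose and 11.7% fell. The T-cell markers summed to 74.8 to 120 TPM in two-digit libraries and 13.5 to 24.4 TPM in single-digit libraries, and the macrophage markers to 211 to 997 TPM and 563 to 906 TPM. The summed Mcm2 to Mcm7 level was 114 TPM in FOXO3 KO 05, 94.2 TPM in FOXO3 KO 06, 51.6 TPM in FOXO3 KO 09, 56.3 TPM in WT 03 and 65.5 TPM in WT 08, against 28.4 to 40.2 TPM in the single-digit FOXO3 KO libraries and 18.7 to 42.6 TPM in the single-digit WT libraries. The 5 two-digit libraries had the same order by B-cell markers and by Mcm sum, from FOXO3 KO 05 at the top to FOXO3 KO 09. The single-digit libraries did not keep the same order throughout. WT 1 was the highest by both (558 and 42.6 TPM) and WT 2 the lowest by both (75.6 and 18.7 TPM). Between them, WT 3 had 428 TPM of B-cell markers and a Mcm sum of 26.4 TPM. FOXO3 KO 1 had 316 and 40.2 TPM, FOXO3 KO 3 had 181 and 28.4 TPM, and FOXO3 KO 2 had 90.6 and 30.3 TPM. By T-cell markers FOXO3 KO 05 was the lowest of the two-digit libraries, at 74.8 TPM. The part of these cell types in the Mcm difference was not tested.

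The Mcm2 to Mcm7 sum was 2.66 to 3.64 times the sum of the 9 mitotic kinase and cyclin genes in two-digit libraries and 1.16 to 1.92 times that sum in single-digit libraries. FOXO3 KO 09, with the lowest mitotic sum of all (14.2 TPM), had the highest of these ratios, and WT 1, with a mitotic sum of 30.3 TPM, was at 1.40. Of 12 markers of granulocyte progenitors and primary granules, 6 averaged at least 1 TPM, and the list summed to 198 to 221 TPM in two-digit libraries and 185 to 304 TPM in single-digit libraries, most of it Hmgn2, which many cell types express. The defining primary granule genes Mpo (myeloperoxidase) and Elane (neutrophil elastase) were at 0 to 3.00 TPM and 0 to 1.25 TPM, while Prtn3 (proteinase 3) was at 1.48 to 5.08 TPM and Kit at 4.26 to 8.96 TPM.

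**Figure D5:**
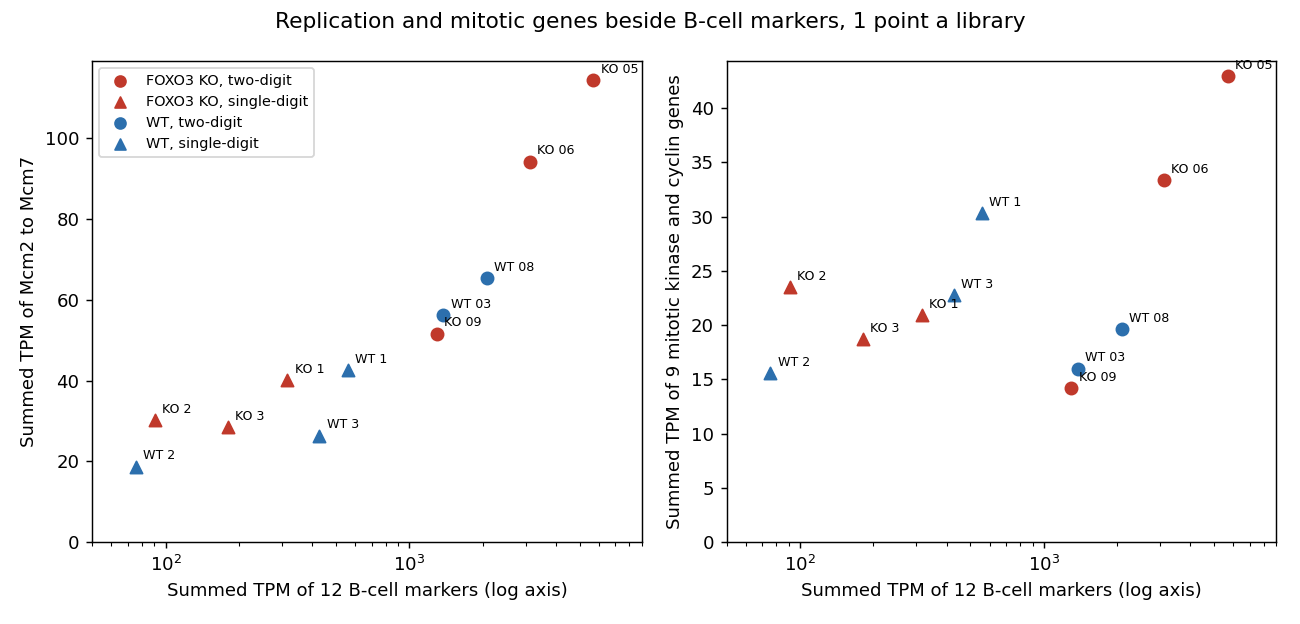
Summed TPM of Mcm2 to Mcm7 (left) and of 9 mitotic kinase and cyclin genes (right) against the summed TPM of 12 B-cell markers on a log axis, 1 point a library. The Mcm sum runs from 18.7 TPM in WT 2 to 114 TPM in FOXO3 KO 05 along the B-cell axis, while FOXO3 KO 09, WT 03 and WT 08 have mitotic sums within or below the single-digit range.

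The numbering difference held unevenly within genotypes. In FOXO3 KO libraries alone 5 of the 33 genes rose (Cdt1, Mcm2, Mcm5, Mcm6 and Mcm7), as did 4.66% of all genes. In WT libraries alone, 2 against 3, 0 were called by limma, and 1.22% of all genes rose. Of the 33, 4 had an unadjusted p under 0.05, as did 1345 of all 11973 genes tested there. Mcm7 was at 1.41 (FDR = 0.20) and Mcm5 at 1.06 (FDR = 0.24). Without FOXO3 KO 05 and FOXO3 KO 06, which then leaves FOXO3 KO 09, WT 03 and WT 08 against the single-digit libraries, 2 rose, Mcm5 at 0.91 (FDR = 0.032) and Mcm7 at 1.30 (FDR = 0.030), as did 4.29% of all genes. Those 3 libraries all had Xist at 0.115 TPM or less, against 4.29 to 84.0 TPM in the single-digit libraries, so numbering and Xist level cannot be told apart there. The value of 4.29 TPM was that of FOXO3 KO 3, which had Ddx3y at 42.9 TPM. Ddx3y was also at 18.03 TPM in FOXO3 KO 09, 20.16 TPM in WT 03 and 18.26 TPM in WT 08. In every other library it was at most 0.264 TPM. With Xist as a further term over all libraries 17 of the 33 rose and 0 fell, with a median of 0.76. Of the 17, 11 had S phase roles and 6 had mitotic roles. With that term 10% of all genes rose and the median of all genes was -0.13.

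The promoters of the S phase genes and of the mitotic genes, called or not, were compared by the letters they hold. RefSeq windows of 300 bases (250 before and 50 after the start, GRCm38.p6) were found for 30 of the 36 genes. They were searched on both strands for the cell cycle homology region (CHR, TTTGAA or TTCGAA), which the DREAM and MuvB complexes bind in mitotic genes, for the CCAAT box, to which NF-Y binds, and for the E2F words TTTCCCGC, TTTGGCGC, TTTCGCGC and TTTGCCGC. A CHR word was in 13 of 16 mitotic genes (81.2%) and 2 of 14 S phase genes (14.3%), beside 21.7% of all 27025 genes with a window (19.2% of all 32851 windows). An E2F word was in 1 of 16 mitotic genes (6.25%) and 7 of 14 S phase genes, beside 2.6% of all genes (2.26% of windows). CCAAT was in 15 of 16 and 9 of 14, beside 41.1% of all genes (37.4% of windows). A match is a description of the letters and not evidence of binding.

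Windows are printed for Mcm7, Mcm5 and Mcm2, the licensing genes with the smallest p by numbering, and for Bub1 and Aurka, mitotic genes that did not pass. They are written 5′ to 3′ on the gene's strand, with CHR, CCAAT and E2F words of either strand in capitals, and CCAAT on the other strand reads ATTGG. In Mcm5, E2F words on both strands overlap, and in Mcm7 an E2F word runs into a CCAAT box. Mcm7 has a second window, which also holds a motif and is not shown. They lie at chr5:138171834-138172133 (minus strand, Mcm7), chr8:75109259-75109558 (plus, Mcm5), chr6:88898731-88899030 (minus, Mcm2), chr2:127831810-127832109 (minus, Bub1) and chr2:172370521-172370820 (minus, Aurka).
Mcm7: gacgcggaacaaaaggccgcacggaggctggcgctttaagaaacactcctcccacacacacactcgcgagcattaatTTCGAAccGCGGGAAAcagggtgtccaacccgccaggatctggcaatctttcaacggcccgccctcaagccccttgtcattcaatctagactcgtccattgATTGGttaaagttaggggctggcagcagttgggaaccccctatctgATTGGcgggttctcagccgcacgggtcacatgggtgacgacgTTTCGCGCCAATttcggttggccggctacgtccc
Mcm5: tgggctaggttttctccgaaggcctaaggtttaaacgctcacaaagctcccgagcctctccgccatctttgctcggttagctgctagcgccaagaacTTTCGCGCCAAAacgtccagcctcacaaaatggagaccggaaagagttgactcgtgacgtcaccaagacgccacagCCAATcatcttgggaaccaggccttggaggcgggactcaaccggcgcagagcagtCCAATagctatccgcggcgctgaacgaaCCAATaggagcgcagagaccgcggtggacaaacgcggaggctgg
Mcm2: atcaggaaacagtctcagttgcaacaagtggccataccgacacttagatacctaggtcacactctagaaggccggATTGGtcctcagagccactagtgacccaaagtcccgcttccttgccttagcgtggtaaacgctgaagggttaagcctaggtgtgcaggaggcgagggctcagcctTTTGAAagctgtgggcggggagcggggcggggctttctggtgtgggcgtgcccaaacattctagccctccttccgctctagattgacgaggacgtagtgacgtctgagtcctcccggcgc
Bub1: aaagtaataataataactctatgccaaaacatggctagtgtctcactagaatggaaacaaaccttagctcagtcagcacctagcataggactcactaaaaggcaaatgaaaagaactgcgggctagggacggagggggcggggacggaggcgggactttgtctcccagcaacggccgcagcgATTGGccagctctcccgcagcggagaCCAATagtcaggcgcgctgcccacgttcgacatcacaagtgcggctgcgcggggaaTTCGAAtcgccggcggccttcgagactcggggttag
Aurka: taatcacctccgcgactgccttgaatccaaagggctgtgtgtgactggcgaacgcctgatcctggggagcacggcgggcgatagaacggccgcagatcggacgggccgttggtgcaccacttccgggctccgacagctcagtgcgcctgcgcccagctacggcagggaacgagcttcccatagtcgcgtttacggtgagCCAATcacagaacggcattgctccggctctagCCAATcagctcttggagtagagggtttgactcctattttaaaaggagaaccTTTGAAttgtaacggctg
Mcm7 and Mcm5 hold E2F words, and none of those searched is in Mcm2, Bub1 or Aurka. A CHR word is in all of these windows but that of Mcm5, and Mcm7 and Mcm2 are the 2 S phase genes that hold it. In Bub1 and Aurka it lies downstream of 2 CCAAT boxes.

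Other genes of the cycle were taken in 6 lists, of which 119 genes were tested. In FOXO3 KO against WT libraries 0 of the 119 were called (0.0% of all genes were). An unadjusted p under 0.05 was reached by 2, as by 257 of all 12195 genes. Above 0 were 102 of the 119 and 68.6% of all genes. Among the inhibitors, Cdkn1a (p21) was at -0.43 (SE 0.23, FDR = 0.99) and Cdkn1b (p27) at -0.27 (SE 0.15, FDR = 0.99). Both are known FOXO targets in other cells. The paper, by a test of its own, lists Cdkn1a as differentially expressed and lower in FOXO3 KO PMNs. By the paper's account, Cdkn1a is also among the genes whose change was borne out by qPCR of FOXO3 KO and WT PMNs. In the test used here Foxo3 itself was not called (FDR = 0.49). Lin9 and Mcm10, a MuvB subunit and a replisome factor, were the 2 with an unadjusted p under 0.05, at 0.48 each (FDR = 0.99).

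By numbering, 15 of the 119 rose in two-digit libraries and 5 fell, where 8.26% of all genes rose and 11.7% fell. Of 28 genes for DNA polymerases, repair and nucleotide supply 11 rose and 0 fell. These included Pold2 and Pold1, subunits of DNA polymerase delta, at 1.35 (FDR = 0.0025) and 1.31 (FDR = 0.0056), Rfc5, a subunit of the clamp loader, at 0.82 (FDR = 0.0034), and Dut, which removes dUTP, at 1.42 (FDR = 0.0061). Of 17 origin firing and replisome genes, Cdc45 rose by 0.67 (FDR = 0.033) and Tipin by 0.92 (FDR = 0.046), while Mcmbp, which binds Mcm proteins, fell by 0.52 (FDR = 0.047). Of 32 further G2 and mitosis genes 2 rose, Pkmyt1 (0.76, FDR = 0.013) and Pttg1 (0.57, FDR = 0.047), and 2 fell, Ckap2l (-0.98, FDR = 0.0094) and Plk4 (-0.55, FDR = 0.048). The anaphase-promoting complex had 0 of 17 higher and 2 lower, its subunits Anapc4 (-0.81, FDR = 0.031) and Cdc27 (-0.58, FDR = 0.031). None of the 10 G1 cyclin, CDK and E2F genes and none of the 15 inhibitor, pocket protein and DREAM genes was called. Of them 1 and 3 had an unadjusted p under 0.05, as did 4285 of all 12195 genes.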

How the data were processed

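Libraries of peritoneal PMNs from 6 FOXO3 KO and 5 WT mice were used. The PMNs were over 90% Ly6G positive by the study's account. The authors deposited TPM per gene and library, with the mean normalized count over all libraries, a signal pooled by the authors and used here only as their mean. The 5 columns of the authors' own genotype comparison (fold change, its error, statistic and p-values) were not used. Tools named in the submitters' processing notes are DESeq2, kallisto 0.46.0 and STAR 2.6.1d, whose roles are not stated, beside the builds hg38 and mm10. Strand use is not given in the sources used here. Depth per library is unknown, so no counting interval is given.

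Log2(TPM + 1) of 12195 genes, those averaging 1 TPM or more, was fitted with limma 3.58.1 (R 4.3.3, mean-variance trend, Benjamini-Hochberg over all genes), tested on simulated data. Fold changes on this scale understate changes of low genes. Genotype was fitted alone, numbering with genotype as a term, and their interaction with both. Column numbers place a library in a genotype, not with one labelled mouse. The labels give no source of each mouse, so p-values measure the spread between these libraries.

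Same-numbered single-digit FOXO3 KO and WT libraries deviated together (r = 0.55, 0.60 and 0.48 for numbers 1, 2 and 3 with genotype means over all libraries, and 0.51, 0.17 and 0.41 over single-digit libraries), although no label explains the numbers. Differently numbered pairs reached r = 0.51 (FOXO3 KO 3 with WT 2) by the first and 0.089 by the second. Genes given in every library were the 5 highest, those of smallest p per contrast and direction, and 5 standard markers (Mki67, Top2a, Cdk1, Pcna, Mcm2), and a few more were chosen after their values were seen. The 36 genes, the 6 pathway and 14 marker lists and the promoter words were chosen with earlier results of these data known. Of 297 listed genes 290 were found, and 7 were not analysed here. Of near-identical copies, Ccnb1-ps, Pcna-ps1 and Tyms-ps are listed at 0, and reads could still be shared among copies. Alternatives were other pseudocounts, filters and normalization, a replicate block, added terms, subsets and each library left out. Python 3.11.15 and matplotlib 3.10.9 drew the figures.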

Additional observations from a re-analysis of the deposited data

How the results depend on the processing

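The count of 0 of the 33 genes called between FOXO3 KO and WT libraries, and of 0 in the interaction, was the same under every alternative run for them. Counts by numbering differed from 7 by over 1.5 times under 3 alternatives. They were 17 with Xist as a further term (median difference 0.76, against 0.28), 0 in WT libraries alone and 2 without FOXO3 KO 05 and 06 together, the last chosen after seeing the data. With each library left out in turn the count was 6 to 8, and the median genotype fold change was 0.08 (without FOXO3 KO 05) to 0.34. The replicate block gave a median of 0.19 and changed no call. Gene values changed sign for Cenpa (0.039) and Cdk2 (0.072) by genotype in two-digit libraries alone, for Bub1 by numbering (0.085) and for Aurkb in the interaction (-0.042) with the Xist term, under which the interaction median of the 33 genes was -0.21 (10 above 0), against 0.37 (32 above 0). With each library left out in turn the Cdk2 fold change by genotype was -0.23 to 0.0028, above 0 only without WT 2. Mcm2 and Mcm6 by numbering lost their call in WT libraries alone (0.99 and 1.18) and without FOXO3 KO 05 and 06 (0.87 and 0.97), as did Mcm7 and Mcm5 in WT libraries alone. These subsets hold fewer libraries, and the cause of the lost calls was not tested. With quantile normalization the median genotype fold change of all genes was 0.01, against 0.11 without it. The unknown depth limits the precision of the low genes.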
